A study of Homo sapiens with 12 samples.

Results

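The genes described here are the replication-dependent histone genes, found as the gene names beginning H2AC, H2BC, H3C, H4C or HIST, or H1-1 to H1-6. The pattern matched 80 of the 60583 genes in the deposited count tables: 6 of class H1, 23 of H2A, 21 of H2B, 15 of H3 and 15 of H4, of which 14 are annotated as pseudogenes. The tables come from TT-seq, in which RNA labelled with 4-thiouridine (4sU) is fragmented, biotinylated and captured, so that reads report newly made RNA rather than the standing mRNA pool. The 12 libraries form 4 groups of 3. The first pair of groups was U2OS, a human osteosarcoma line, transfected with siCtrl or with siINTS11, an siRNA named for a subunit of the Integrator complex. The second pair was U2OS-AsiSI, a derivative labelled AsiSI-ER (a fusion of the AsiSI nuclease with an oestrogen receptor domain), given the same siRNAs and 1 h of OHT, which the U2OS labels do not carry. RNA was taken at 48 h after transfection. The labels give neither the clonal origin of U2OS-AsiSI nor whether replicates were separate cultures, so the p-values below measure only the spread between these libraries. Line, nuclease and OHT differ together and cannot be told apart.

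Replication-dependent histones package DNA made in S phase: H2A, H2B, H3 and H4 form the nucleosome core, and H1 is the linker histone that binds where DNA enters and leaves it. Their genes sit in clusters, mostly lack introns, and give mRNAs that end in a conserved stem-loop in place of a poly(A) tail. The stem-loop is bound by SLBP, the U7 snRNP binds just downstream, and the endonuclease CPSF3 cuts between them; INTS11, the catalytic subunit of Integrator, is a paralogue of CPSF3 that cuts nascent RNA of snRNA and other genes.

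The stem-loop is shown because members are divided below by the annotated span that lies past it. A 16-base stem-loop was found in GENCODE 29 transcripts of 27 of the 76 members that matched that annotation, and where none was found, that says nothing about the gene. Letters are the DNA strand of the mRNA, and capitals mark the loop. The 27 members carried 5 sequences, which differ in the loop's last base and in the base pairs of the stem.
Stem-loop of 13 members, among them H2AC6, H2BC8 and H2BC15: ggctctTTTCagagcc
Stem-loop of 4 members, H2BC4, H2BC5, H2BC7 and H3C8: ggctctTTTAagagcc
Stem-loop of 4 members, H4C2, H4C5, H4C8 and H4C11: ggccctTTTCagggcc
Stem-loop of 3 members, H4C9, H4C14 and H4C15: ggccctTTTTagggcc
Stem-loop of 3 members, H2AC11, H2BC19P and H2BC20P: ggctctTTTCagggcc

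Promoters of 4 members are printed to show the elements in well-read genes of several classes and, for H1, in 1 nearly unread gene beside a dense one. They are RefSeq windows (GRCh38.p14) of 250 bases before and 50 bases after the start, 5′ to 3′ on the gene's strand. Capitals mark matches, on either strand, to the TATA box (TATAAA), the CCAAT box, the octamer (ATTTGCAT), the H1 box (AAACACA) and the core of the H4 site II (GGTCCG); the letters of these motifs do not contain one another. H1-2 and H1-5 encode linker histones with the highest and among the lowest read densities of the family. H2BC4 had the largest change among the members named by the rule given under processing, and H4C8 was the H4 member with the smallest adjusted p. The H2BC4 window overlaps that of H2AC6, which starts nearby on the other strand. Its TATAAA match at -220 and octamer at -123 are the same bases as the H2AC6 matches at -31 and -130.
H1-2, chr6:26056421-26056720, minus strand: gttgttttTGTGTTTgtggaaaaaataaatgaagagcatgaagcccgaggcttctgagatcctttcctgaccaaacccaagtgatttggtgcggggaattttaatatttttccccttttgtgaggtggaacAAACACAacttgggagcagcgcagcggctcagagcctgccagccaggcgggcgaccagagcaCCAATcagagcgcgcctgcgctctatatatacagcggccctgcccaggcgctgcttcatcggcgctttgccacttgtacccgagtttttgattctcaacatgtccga
H1-5, chr6:27867539-27867838, minus strand: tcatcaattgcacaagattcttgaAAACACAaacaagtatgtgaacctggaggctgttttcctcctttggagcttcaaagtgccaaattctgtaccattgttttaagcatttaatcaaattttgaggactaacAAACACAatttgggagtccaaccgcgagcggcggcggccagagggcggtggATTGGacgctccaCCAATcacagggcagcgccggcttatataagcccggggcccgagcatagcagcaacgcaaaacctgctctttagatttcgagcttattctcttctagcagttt
H2BC4, chr6:26123877-26124176, minus strand: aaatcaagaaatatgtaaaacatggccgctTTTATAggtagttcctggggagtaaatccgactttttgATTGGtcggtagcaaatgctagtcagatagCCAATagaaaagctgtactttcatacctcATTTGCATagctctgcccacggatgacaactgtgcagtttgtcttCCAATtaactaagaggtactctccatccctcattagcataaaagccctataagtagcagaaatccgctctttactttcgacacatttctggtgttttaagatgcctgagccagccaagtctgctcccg
H4C8, chr6:26285485-26285784, minus strand: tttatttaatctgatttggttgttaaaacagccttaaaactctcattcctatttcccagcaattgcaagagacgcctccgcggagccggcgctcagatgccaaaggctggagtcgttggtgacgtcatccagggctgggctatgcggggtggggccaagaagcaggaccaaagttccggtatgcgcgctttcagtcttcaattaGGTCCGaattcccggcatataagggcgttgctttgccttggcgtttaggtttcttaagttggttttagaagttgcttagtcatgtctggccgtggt

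RefSeq gave 65 promoter windows for 61 members, and the counts here are of windows. H2BC5, H2BC12, H3C4 and H3C6 have more than 1 window and so count more than once. CCAAT was present in 86.2% of them, against 34.6% of all 35116 windows of the same length, and TATAAA in 67.7% against 11.5%. The octamer stood in 15 of 19 H2B and 11 of 15 H2A windows and in none of the 6 H1 or 12 H4 windows, against 1.77% of all windows. The H1 box stood in 6 of 6 H1 windows and 5.64% of all, and GGTCCG in 11 of 12 H4 windows and 11.3% of all. CCAAT was found in 3 of 12 H4 windows, the lowest share of the 5 classes. Windows of members with a mean count under 1 held CCAAT in 17 of 18 cases and the octamer in 6. For windows of members with a mean count of at least 20 it was 31 and 16 of 37. H1-5 thus has the H1 box and CCAAT, as H1-2 does, although its reads were 1 in all 12 libraries together. These matches are letters in a window and do not show binding. Windows of H2A and H2B genes that start close together on opposite strands overlap, so 1 match can count for both.

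Library totals ran from 20704611 to 38065726 counts, and the members took between 0.0455% and 0.0879% of each. INTS11, the targeted gene, had 277, 314 and 286 reads in the U2OS siCtrl libraries and 260, 216 and 225 in those labelled siINTS11, so it fell by 0.42 on the log2 scale (SE 0.09, edgeR adjusted p = 6.08e-05). In U2OS-AsiSI it had 284, 351 and 269 against 258, 212 and 277 reads, and the log2 change of -0.13 (SE 0.08, edgeR adjusted p = 0.172) did not pass. These reads report newly made RNA, so the standing INTS11 mRNA and protein were not measured, and the values do not tell how far INTS11 was depleted. The groups called siINTS11 below are therefore the libraries labelled so. Of the osteosarcoma line markers, RUNX2, SPARC and COL1A1 had at least 1929 reads in every library, while BGLAP was at 0 and SP7, IBSP and COL1A2 had at most 13 reads per library. The 5 blood cell markers, HBB at 0 among them, summed to at most 0.459 CPM. Of 5 epithelial markers 4 were tested in each line. Among those, 2 rose in U2OS-AsiSI and 4 in U2OS and none fell, with KRT18 at 0.49 and 0.21 and KRT8 at 0.39 and 0.19. Over all genes 35.4% rose and 32.6% fell in U2OS-AsiSI, and 34.5% and 32.4% in U2OS. Among the osteosarcoma markers RUNX2 fell by 1.07 and 0.84 and ALPL rose by 1.31 and 1.47 in the same order of lines; the part of these shifts in the histone values was not tested. The yeast spike-in named in the labels has no rows in the tables, so changes in nascent output as a whole were not analysed here. A change in the share of cells in S phase and a change in RNA per cell cannot be told apart. Libraries of 1 group differed by 1.93 to 3.28 times the counting noise (chi-square per degree of freedom), so none was a plain copy of another. This measure takes counts as proportional to library totals, so it cannot tell separate cultures from repeats of the same RNA.

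Read density was set by the individual gene more than by its class. Of the 80 members, 39 averaged at least 20 reads per library, 13 averaged 1 to under 20, and 28 averaged under 1. Among the last, 13 had no read in any of the 12 libraries. A count of 0 in 1 library alone allows up to 3 counts there, and 0 in all 12 allows fewer per library. Density is given as reads per base, the count divided by the annotated span; it is not corrected for library size, and it rose little with depth in dense genes (below). H1-2, a linker histone of somatic cells, was the densest member at 0.942 on average over the 12 libraries, followed by the linker gene H1-4 at 0.880 and the core genes H2AC12 at 0.851, H3C1 at 0.845, H2BC14 at 0.820 and H2AC20 at 0.818. The densest H4 gene was H4C2 at 0.683. No member exceeded 0.986 reads per base in any library.

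**Figure D1:**
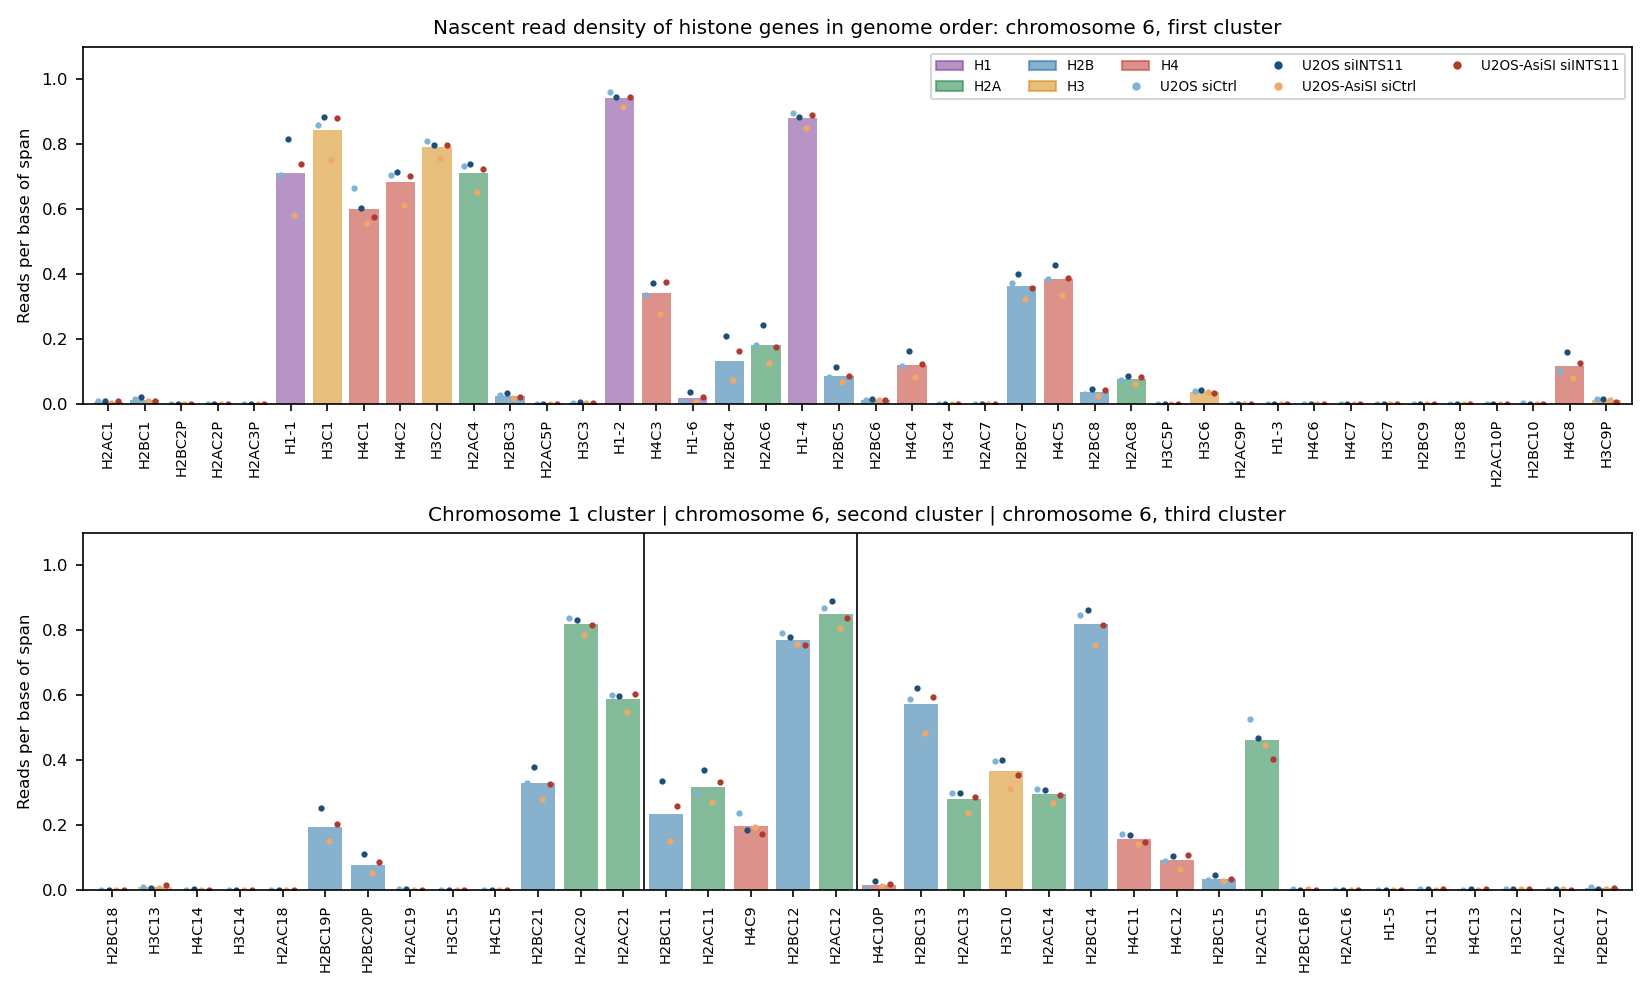
Mean reads per base of span (y axis) of each histone gene in genome order (x axis), for the first chromosome 6 cluster (top) and the chromosome 1, later chromosome 6 clusters (bottom). Bars are the mean over the 4 groups, coloured by class, and points are the 4 group means (n = 3 each); dense genes alternate with runs of genes near 0, and the densest bar, H1-2, is at 0.942.

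H1-2 had 618, 633 and 599 reads in U2OS with siCtrl and 608, 607 and 608 with siINTS11, over its 642 bases at chr6:26055787-26056428. In U2OS-AsiSI it had 569, 607 and 588 with siCtrl and 606, 602 and 616 with siINTS11. The 12 values lie within a narrow band although the library totals differ widely. H1-3 and H1-5, linker genes of the same cluster family, had 1 read each in all 12 libraries together. H1-1 was at 0.711 reads per base, and the testis linker gene H1-6 averaged 13 reads. Class H1 thus held 3 dense members, 1 weakly read one and 2 near 0.

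Among members with a mean count of at least 20, the median density was 0.880 for the 3 H1 genes, 0.578 for 4 H3, 0.389 for 10 H2A, 0.196 for 9 H4 and 0.194 for 13 H2B genes. The ranges inside a class were wider than these differences: H2B ran from 0.0117 (H2BC6) to 0.820 (H2BC14), and H2A from 0.0758 (H2AC8) to 0.851. Much of the spread followed the annotated span, which exceeded 1 kb for 26 members, 17 of them with at least 20 reads. In U2OS with siCtrl, the median over the 17 long-span members was 0.160 to 0.189 in the 3 libraries, and over the 22 members of up to 1 kb it was 0.631 to 0.717. For span up to 1 kb, the H4 genes had the lowest median of the 5 classes in U2OS with siCtrl, 0.231 to 0.275, and the H1 genes the highest, 0.874 to 0.906.

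By position, 42 members lay in the first chromosome 6 cluster (chr6:25726132-26322292), 5 in the second (chr6:27125897-27147515), 18 in the third (chr6:27807075-27893843) and 13 on chromosome 1 (chr1:149782689-149888013). Single pseudogenes stood on chromosomes 13 and 2. Clusters were joined where successive starts were under 500 kb apart. The second cluster was the only one of the 4 in which every member averaged at least 20 reads; the shares elsewhere were 20 of 42, 9 of 18 and 5 of 13. Weakly read genes were neighbours: 9 successive members from H2AC9P to H2BC10 (chr6:26233122-26273356), including H1-3, H4C6, H4C7, H3C7, H2BC9 and H3C8, had 12 reads between them in all libraries. That run ends next to H4C8, which averaged 938 reads.

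A second run of 8 members, from H2BC16P to H2BC17 (chr6:27864062-27893843) and including H1-5, H3C11, H4C13 and H3C12, had 75 reads in all libraries. On chromosome 1, H2AC18, H2AC19, H3C14, H3C15, H4C14 and H4C15 averaged 0 to 3.25 reads, while the pseudogenes H2BC19P and H2BC20P between them averaged 699.5 and 498 reads. H2AC18 and H2AC19, H3C14 and H3C15, and H4C14 and H4C15 are near-identical copies; how reads that map to more than 1 place were counted is not given in the sources used here, so their low values, and the split between H2BC19P and H2BC20P, are uncertain. A total of 9 members share bases with another gene on their strand, among them H2AC16 (0 reads), which lies inside H2BC15, and H3C4 and H2AC7 (0 reads each), which share bases with AL031777.2.

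With siINTS11 in U2OS-AsiSI, 32 of the 40 members tested rose and none fell (edgeR quasi-likelihood test, adjusted p under 0.05); over all 20441 genes tested 35.4% rose and 32.6% fell. The median log2 fold change was 0.37 for the members and 0.03 for all genes. In U2OS, 13 of 41 rose and 3 fell, against 34.5% and 32.4% of all 20687 genes, with medians of 0.06 and 0.02. The split in U2OS was 10 higher and 9 lower without siCtrl replicate 2, the deepest library, and 19 higher and 1 lower with scaling by library totals. Against all genes, the share that rose is therefore near the background in U2OS and above it in U2OS-AsiSI. The share that fell is below it in both. Dense genes in general rose more often in U2OS-AsiSI. At 0.3 reads per base and above, 18 of 21 members rose there, against 115 of 157 other genes. At 0.1 to 0.3 it was 7 of 10 against 619 of 1383, and under 0.1 it was 7 of 9 against 6470 of 18861. Of the 13 members that rose in U2OS, 11 had a span over 1 kb. Called higher in both lines were 12 members, 20 were called in U2OS-AsiSI and not in U2OS, and none was called in opposite directions; the line comparison has its own test below. The 40 members not tested in U2OS-AsiSI and the 39 not tested in U2OS had too few reads for edgeR's filter.

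**Figure D2:**
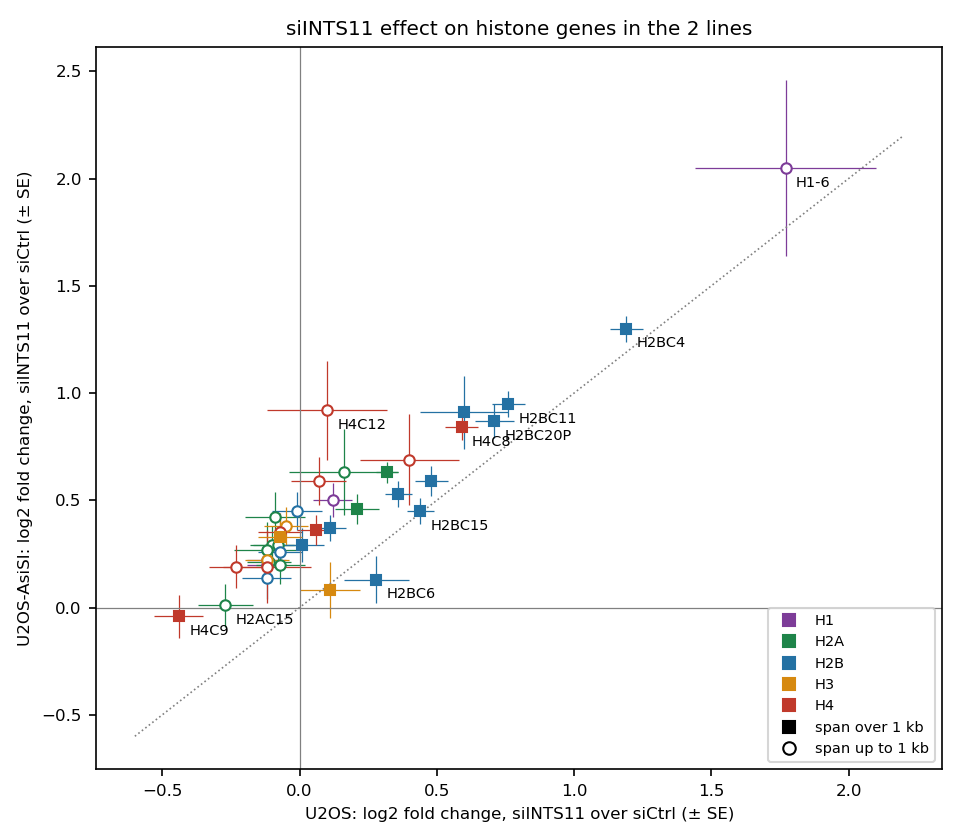
Log2 fold change (siINTS11 over siCtrl) of each member tested in both lines, U2OS on the x axis and U2OS-AsiSI on the y axis, with SE as bars, coloured by class, filled squares for spans over 1 kb and open circles for shorter ones; the dotted line marks equal change. H2BC4 and H1-6 lie highest in both lines, H4C9 lies lowest in U2OS at -0.44, and most open circles lie near 0 in U2OS and above 0 in U2OS-AsiSI.

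H2B genes, which encode a core histone, held the largest change among the members named by the rule. H2BC4 (chr6:26114873-26123926, minus strand, 9054 bases) had 775, 830 and 738 reads in U2OS with siCtrl and 1843, 1885 and 1974 with siINTS11. In U2OS-AsiSI it had 605, 700 and 671 against 1472, 1331 and 1600. All siINTS11 libraries were above all siCtrl libraries, and the gene rose 2.28-fold in U2OS and 2.47-fold in U2OS-AsiSI. The log2 changes were 1.19 (SE 0.06, edgeR adjusted p = 9.62e-19) and 1.30 (SE 0.06, edgeR adjusted p = 8.13e-18).

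H2BC11, another H2B gene (chr6:27125897-27132750, minus strand), had 1244, 1344 and 1215 reads in U2OS with siCtrl and 2216, 2262 and 2399 with siINTS11. In U2OS-AsiSI it had 932, 1112 and 1018 against 1822, 1608 and 1902. The groups did not overlap in either line, and the gene rose 1.69-fold and 1.93-fold (log2 0.76 and 0.95, SE 0.06 in both, edgeR adjusted p = 6.72e-12 and 2.42e-15). The H2B pseudogene H2BC20P went from 394, 456 and 374 to 716, 740 and 677 in U2OS, and from 309, 348 and 331 to 546, 524 and 558 in U2OS-AsiSI. It rose by 0.71 and 0.87 on the log2 scale (edgeR adjusted p = 2.11e-12 and 3.69e-11), and its neighbour H2BC19P by 0.48 and 0.59. These overlap on opposite strands, and whether the counting used strand is not given in the sources used here.

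Of 14 H2B members tested in U2OS, 8 rose and none fell (median 0.32), and of 13 in U2OS-AsiSI 11 rose and none fell (median 0.45). H2BC15, which spans 28039 bases (chr6:27837760-27865798) at 0.0335 reads per base, rose by 0.44 in U2OS and 0.45 in U2OS-AsiSI (SE 0.05 and 0.06, edgeR adjusted p = 1.03e-09 and 7.89e-08). Its counts were 819, 964 and 841 against 1250, 1265 and 1284 in U2OS, without overlap, but 668, 775 and 726 against 937, 752 and 991 in U2OS-AsiSI, where siINTS11 replicate 2, the shallowest library, fell inside the siCtrl range. H2BC5 rose by 0.36 and 0.53, and H2BC8 by 0.60 and 0.91 from 31 to 52 reads per siCtrl library. H2BC21 and H2BC7, both over 1 kb, changed by 0.11 and 0.01 in U2OS, which did not pass, and rose by 0.37 and 0.29 in U2OS-AsiSI.

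The short and dense H2B genes had other values than the long ones in U2OS. H2BC14 (381 bases) had 321, 336 and 312 reads against 334, 333 and 319 in U2OS, and 280, 304 and 280 against 306, 314 and 312 in U2OS-AsiSI. The U2OS groups overlap (log2 change -0.07, edgeR adjusted p = 0.476) and those of U2OS-AsiSI do not (0.26, edgeR adjusted p = 0.0117). H2BC12 passed in neither line (-0.12 and 0.14), and H2BC13 changed by -0.01 in U2OS and rose by 0.45 in U2OS-AsiSI. H2BC6 spans 12597 bases at 0.0117 reads per base; it rose by 0.28 in U2OS (edgeR adjusted p = 0.0354) and its 0.13 in U2OS-AsiSI did not pass. With counts thinned to the smallest library total, the U2OS value of H2BC6 was 0.07 (edgeR adjusted p = 0.665), and the call was also lost with DESeq2 (adjusted p = 0.118) and without replicate 2 or 3 of either U2OS group (edgeR adjusted p = 0.0565 to 0.337).

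**Figure D3:**
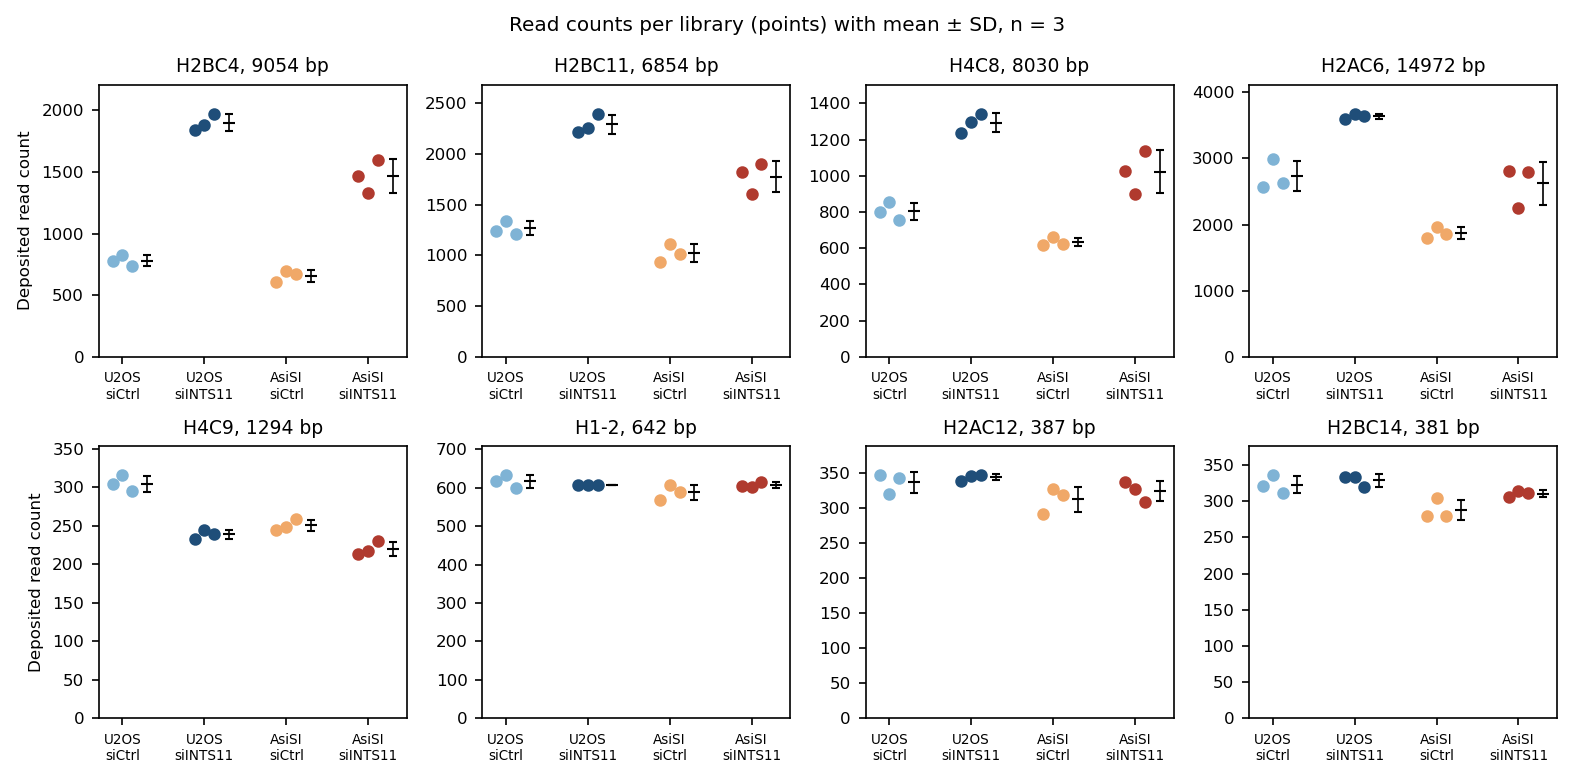
Deposited read counts (y axis, starting at 0) of 8 members in each of the 12 libraries (points) by group (x axis), with the group mean and SD beside them (n = 3). H2BC4, H2BC11, H4C8 and H2AC6 are higher with siINTS11 in both lines, H4C9 is lower with siINTS11, and H1-2, H2AC12 and H2BC14 lie in narrow bands.

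Among H2A genes, the partner of H2B in the nucleosome, H2AC6 had the larger change of the 2 with spans over 1 kb. H2AC6 (chr6:26124145-26139116, plus strand, 14972 bases) had 2571, 2987 and 2625 reads in U2OS with siCtrl and 3601, 3677 and 3639 with siINTS11. In U2OS-AsiSI it had 1795, 1967 and 1863 against 2815, 2254 and 2801. Both lines were without overlap, and it rose by 0.32 (SE 0.04, edgeR adjusted p = 2.13e-08) and 0.63 (SE 0.05, edgeR adjusted p = 1.2e-12). H2AC11 rose by 0.21 in U2OS and 0.46 in U2OS-AsiSI. The U2OS call of H2AC11 was lost with DESeq2 (adjusted p = 0.0594) and without siCtrl replicate 2 or siINTS11 replicate 2 or 3 (edgeR adjusted p = 0.106 to 0.218), with a value of 0.09 without the first of these. Of 10 H2A members tested, 8 rose and none fell in U2OS-AsiSI (median 0.29), and 2 rose and 1 fell in U2OS (median -0.09).

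Among the dense H2A genes, H2AC12 and H2AC20 passed in U2OS-AsiSI by a small margin. H2AC12 (387 bases) had 347, 320 and 343 reads against 339, 346 and 347 in U2OS, and 292, 327 and 318 against 337, 327 and 309 in U2OS-AsiSI. The values overlap in both lines, with log2 changes of -0.07 (edgeR adjusted p = 0.547) and 0.20 (edgeR adjusted p = 0.049). H2AC20 changed by -0.11 in U2OS and rose by 0.21 in U2OS-AsiSI (edgeR adjusted p = 0.0446). With median-of-ratios size factors neither H2AC12 nor H2AC20 passed (edgeR adjusted p = 0.0685 and 0.0639). H2AC4 had log2 values of -0.08 in U2OS and 0.29 in U2OS-AsiSI, and the second passed. H2AC15, named here after its values were seen, fell in U2OS by 0.27 (edgeR adjusted p = 0.021) from 219, 213 and 190 to 191, 192 and 168 reads, which overlap. It lies on the opposite strand inside the span of H2BC15.

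The H4 genes, another core histone class, ran in both directions in U2OS, where 2 rose and 2 fell of 9 (median 0.06); in U2OS-AsiSI 6 rose and none fell (median 0.36). H4C8 (chr6:26277609-26285638, minus strand, 8030 bases) had 799, 854 and 758 reads in U2OS with siCtrl and 1238, 1296 and 1343 with siINTS11. In U2OS-AsiSI it had 617, 660 and 624 against 1029, 900 and 1137. The groups did not overlap, and it rose 1.51-fold and 1.78-fold (log2 0.59 and 0.84, SE 0.06 in both, edgeR adjusted p = 2.78e-10 and 1.11e-13). H4C9 (chr6:27138588-27139881, plus strand, 1294 bases) had 304, 316 and 295 reads in U2OS with siCtrl and 233, 245 and 239 with siINTS11, and fell by 0.44 (SE 0.09, edgeR adjusted p = 3.28e-05). In U2OS-AsiSI its counts of 245, 248 and 259 were also above the 214, 217 and 231 of siINTS11, but after scaling for library size the change was -0.04 (edgeR adjusted p = 0.752).

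H4C1 fell in U2OS by 0.23 (edgeR adjusted p = 0.0405), a call lost with scaling by library totals alone (-0.03, edgeR adjusted p = 0.778), with DESeq2 (adjusted p = 0.0858), with a mean count of at least 50 (edgeR adjusted p = 0.0961), and without siCtrl replicate 1 or any 1 siINTS11 library (edgeR adjusted p = 0.057 to 0.385). Its 0.19 in U2OS-AsiSI did not pass. H4C2 and H4C3 changed by -0.07 and 0.07 in U2OS, which did not pass, and rose by 0.35 and 0.59 in U2OS-AsiSI. H4C5, with a span of 1487 bases, had values of 0.06 in U2OS and 0.36 in U2OS-AsiSI, and only the second passed. H4C4, named here outside the rule and with 23 to 42 reads in the siCtrl libraries, was among the H4 genes that passed in both lines. Its values were 0.40 in U2OS (edgeR adjusted p = 0.0476, a small margin) and 0.69 in U2OS-AsiSI (edgeR adjusted p = 0.0044). H4C8 and H4C9 thus mark the ends of the H4 range in U2OS, from 0.59 to -0.44.

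Of the 4 H3 members tested, none passed in U2OS and 3 rose in U2OS-AsiSI (median -0.06 and 0.28). H3C1, a core histone gene of 411 bases, had 360, 357 and 343 reads against 372, 361 and 359 in U2OS, and 302, 309 and 317 against 355, 362 and 370 in U2OS-AsiSI. The U2OS values overlap and the U2OS-AsiSI values do not, with log2 changes of -0.05 (edgeR adjusted p = 0.591) and 0.38 (edgeR adjusted p = 0.000437). H3C2 rose by 0.22 and H3C10 by 0.33 in U2OS-AsiSI. H3C6, which spans 3275 bases, passed in neither line (0.11 and 0.08). H3C9P, next in density among the short H3 genes, had 0.0114 reads per base and was not tested.

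For the linker class H1, H1-2, H1-4 and H1-1 did not pass in U2OS (-0.12, -0.12 and 0.12) and rose in U2OS-AsiSI by 0.20, 0.22 and 0.50 (edgeR adjusted p = 0.0182, 0.011 and 3.42e-06). H1-4 had 683, 683 and 659 reads against 684, 656 and 659 in U2OS, and 625, 662 and 637 against 667, 672 and 672 in U2OS-AsiSI. The U2OS-AsiSI groups of H1-4 did not overlap, although its siINTS11 libraries were the shallower ones. H1-6, singled out after its values were seen, went from 7, 9 and 5 to 33, 16 and 28 reads in U2OS and from 5, 3 and 4 to 10, 14 and 22 in U2OS-AsiSI. It rose by 1.77 (SE 0.33) and 2.05 (SE 0.41) on the log2 scale (edgeR adjusted p = 8.39e-06 and 6.38e-05), the largest changes of any member tested, on low counts. Without siINTS11 replicate 2 of U2OS-AsiSI, 7 of the named members that rose in that line did not pass (edgeR adjusted p = 0.0631 to 0.446): H1-2, H1-4, H2AC12, H2AC20, H2BC7, H2BC14 and H3C2. Over all members 24 instead of 32 then rose. DESeq2 also left 6 of these 7, all but H2BC7, short of the threshold (adjusted p = 0.0512 to 0.143), and so did leaving out U2OS-AsiSI siCtrl replicate 2 for H1-2, H2AC12, H2AC20 and H3C2 (edgeR adjusted p = 0.072 to 0.157).

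Raw counts gave a view that uses no scaling, but library depth enters it. In U2OS-AsiSI, 27 of 40 members had all siINTS11 counts above all siCtrl counts, against 19.9% of all genes tested. H4C9 and H2AC15 were the reverse (33.6% of all genes). The siINTS11 totals were lower in this line. Counts of other genes under 0.1 reads per base followed depth (median log-log slope 1.05), and those of the 21 dense members hardly did (0.12). The shares of members and of all genes are therefore not like for like. In U2OS, 17 of 41 were higher without overlap (31.3% of all genes), 14 of the 17 with a span over 1 kb and 3 of the 24 shorter ones, and H4C9 was lower (17.3%). Summed over members longer than 1 kb, counts went from 12098 ± 783 (SD, n = 3) to 17444 ± 260 in U2OS and from 9700 ± 596 to 13656 ± 1202 in U2OS-AsiSI. Summed over members of up to 1 kb, they went from 6046 ± 199 to 6154 ± 112 in U2OS and from 5397 ± 207 to 5942 ± 94 in U2OS-AsiSI. The short-span sums of U2OS overlap, and the other 3 comparisons of sums do not.

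Grouped by the test, 11 of 17 members with a span over 1 kb rose in U2OS and 1 fell (median 0.32), against 2 that rose and 2 that fell of 24 shorter members (median -0.08). In U2OS-AsiSI, 14 of 17 long members (median 0.46) and 18 of 23 short members (median 0.29) rose. Span and density go together, with 16 short and 5 long members at 0.3 reads per base and above. In U2OS the long and short medians were 0.40 and 0.20 under 0.1 reads per base, 0.53 and -0.10 at 0.1 to 0.3, and 0.06 and -0.09 above. In U2OS-AsiSI they were 0.49 and 0.92 (3 short members), 0.73 and 0.35, and 0.36 and 0.24. Scaling by library totals alone moved the median of all genes to 0.22 in both lines, and the members' medians moved with it to 0.26 in U2OS and 0.56 in U2OS-AsiSI. Under that scaling, 12 of the members named here with values from -0.12 to -0.01 in U2OS had values above 0, H1-2 and H1-4 among them. The U2OS median over all members, 0.06, also lay between -0.02 and 0.12 as single libraries were left out.

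A closer division follows the stem-loop, and it was chosen after the values were seen, so it has no test. Among the 20 members that were tested and have a stem-loop in an annotated transcript, 11 have over 1000 bases of annotated span past it, from 1022 (H4C5) to 26693 (H2BC15). All 11 rose in U2OS-AsiSI (median 0.59) and 9 of them rose in U2OS (median 0.44). Of the 9 with 6 to 769 bases past the stem-loop, 6 rose in U2OS-AsiSI (median 0.33), and in U2OS 1 rose and 1 fell (median -0.07). H2BC4 has 95% of its span past the stem-loop, H4C8 93.7% and H2AC6 96.4%. A span over 1 kb with little of it past the stem-loop was found for H2BC6, whose stem-loop leaves 430 of 12597 bases, and H4C9, whose stem-loop leaves 212 of 1294; their values were 0.13 and -0.04 in U2OS-AsiSI, which did not pass, and 0.28 and -0.44 in U2OS, which passed in opposite directions. H2BC11 and H3C6 had no stem-loop found in their annotated transcripts. The counts are per whole span, so reads before and after the stem-loop cannot be told apart in these tables.

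**Figure D4:**
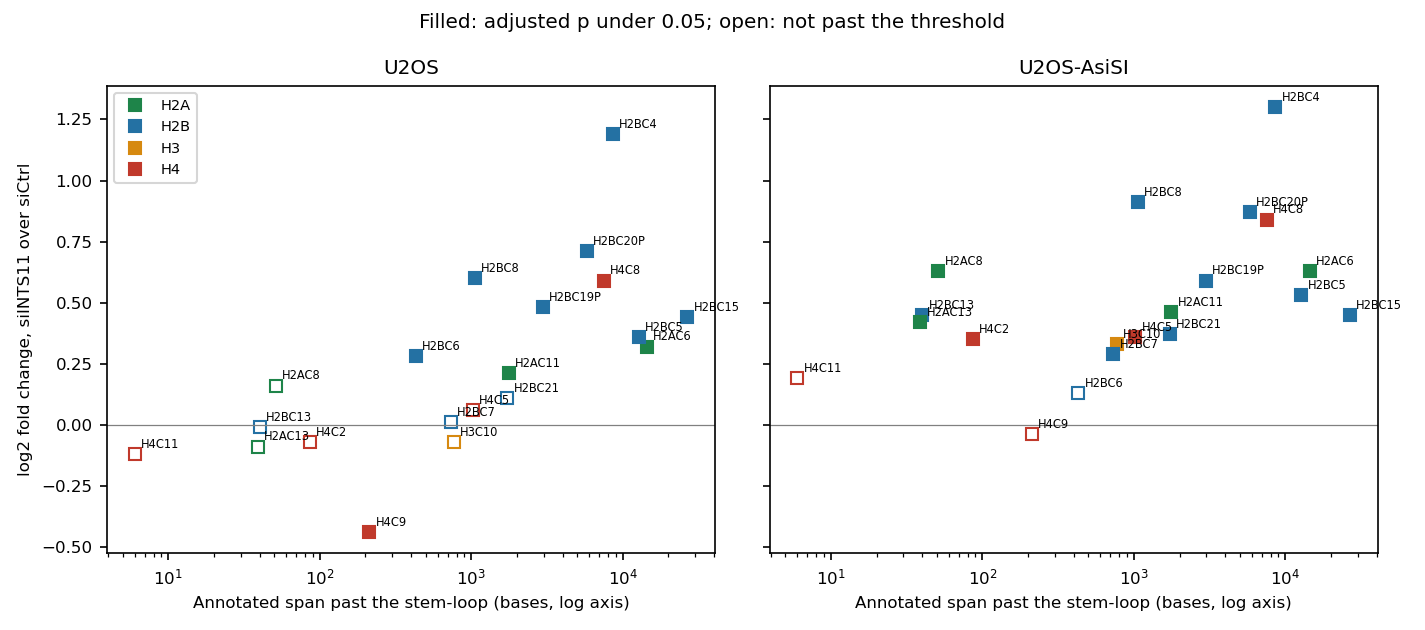
Log2 fold change (siINTS11 over siCtrl, y axis) against the annotated bases past the stem-loop (x axis, log scale) for the 20 members tested that have one, U2OS on the left and U2OS-AsiSI on the right; filled squares passed the test. In U2OS, members with under 1000 bases past the stem-loop lie between -0.44 and 0.28, and those with more lie between 0.06 and 1.19.

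Read density also moved with the response. The 21 members at 0.3 reads per base and above had a median change of 0.29 in U2OS-AsiSI and -0.07 in U2OS; the 157 other genes in that band had 0.23 and 0.00, and 115 of them rose in U2OS-AsiSI. At 0.1 to 0.3 reads per base, the 10 members had medians of 0.61 and 0.36, against 0.10 and 0.04 for 1383 other genes. Under 0.1, the 9 members tested in U2OS-AsiSI had a median of 0.63 and the 10 in U2OS 0.32, against 0.01 and 0.02 for the other genes. In the 2 lower bands the members therefore stood further from the other genes than in the top band. Counts of dense members also followed sequencing depth weakly: across libraries of 1 group, a log-log slope of count against library total was 0.12 at the median of the 21 dense members, 0.42 in the middle band and 0.53 for 8 members of the lowest. For other genes in the same bands that slope was 0.35, 0.79 and 1.05, so the members had the lower slope in each band. Scaling for library size assumes proportion to depth, and the U2OS-AsiSI siINTS11 libraries were shallower than their controls; the part of this in the values of the dense members was not tested. With counts transformed as if reads were limited to 1 per base, the difference between the lines passed for 11 members instead of 1.

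**Figure D5:**
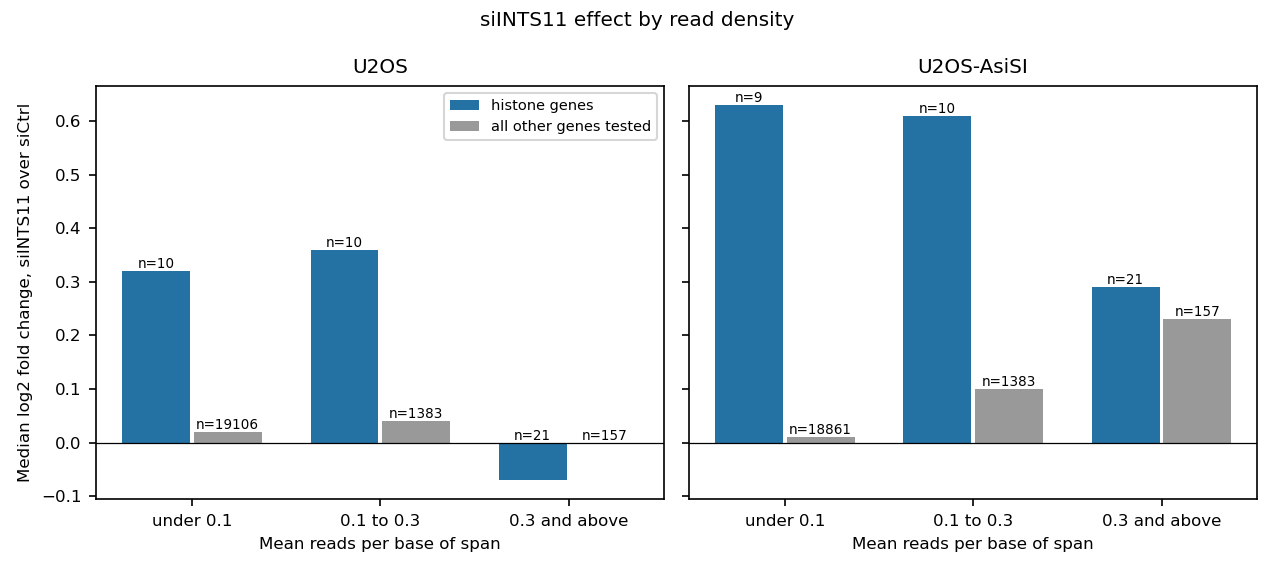
Median log2 fold change (siINTS11 over siCtrl, y axis) of histone genes (blue) and all other genes tested (grey) in 3 bands of mean reads per base (x axis), in U2OS (left) and U2OS-AsiSI (right), with the number of genes above each bar. At 0.3 and above the 2 sets are at 0.29 and 0.23 in U2OS-AsiSI and at -0.07 and 0.00 in U2OS.

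The difference of the siINTS11 effect between the lines was tested over all 12 libraries. Of 41 members 1 passed, H2AC6, whose effect was larger in U2OS-AsiSI by 0.27 on the log2 scale (SE 0.07, edgeR adjusted p = 0.0213); 0.762% of all genes passed in that direction and 3.1% in the other, where no member did. The next were H2BC13 (0.43, SE 0.13, edgeR adjusted p = 0.0518) and H4C3 (0.49, SE 0.15, edgeR adjusted p = 0.0555). The members' median difference was 0.28, against -0.05 for all genes, with 37 of 41 above 0. For H2BC4 the difference was 0.08 and for H2BC15 -0.03, while for the 24 members of up to 1 kb the median was 0.33. Dense genes in general had a positive difference, with a median of 0.19 and 153 of 157 above 0 among non-members at 0.3 reads per base or more. The number passing ran from 0 to 13 as single libraries were left out: it was 0 without replicate 1 of U2OS siCtrl, U2OS siINTS11 or U2OS-AsiSI siCtrl or without U2OS-AsiSI siCtrl replicate 2, 13 without U2OS siCtrl replicate 2, the deepest library, 6 without U2OS-AsiSI siINTS11 replicate 1, 4 without U2OS-AsiSI siCtrl replicate 3 and 2 without U2OS siINTS11 replicate 2.

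With siCtrl alone, 13 of 39 members were lower in U2OS-AsiSI than in U2OS and none was higher, against 17.2% and 17.8% of all genes; the median was -0.20, and all 39 values were below 0. H2AC6 had 2571 to 2987 reads in U2OS and 1795 to 1967 in U2OS-AsiSI, without overlap, and had a log2 difference of -0.50 (edgeR adjusted p = 2.65e-09). The differences were -0.31 for H4C8 and -0.26 for H2BC5 (edgeR adjusted p = 0.000534 and 0.000842). Leaving out replicate 1 of either siCtrl group gave 7 instead of 13 members past the threshold, leaving out U2OS-AsiSI siCtrl replicate 2 gave 8, and scaling by library totals gave 6. At 0.3 reads per base and above, the 21 members had a median of -0.16 in this comparison and the 156 other genes one of 0.07. The G2 and M phase list was also lower in U2OS-AsiSI (11 of 19, none higher), and the G1/S and S phase list was higher in 7 of 18 and lower in 1; the share of cells in each phase was not measured.

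With siINTS11, 11 of 41 members were higher in U2OS-AsiSI than in U2OS and 2 lower, against 22.2% and 21.4% of all genes, with a median of 0.14. The 11 higher members were all of up to 1 kb with at least 0.3 reads per base, where 125 of 157 other genes were higher too. H1-4 was among them (0.29, edgeR adjusted p = 0.00049), with 684, 656 and 659 reads in U2OS and 667, 672 and 672 in U2OS-AsiSI. The raw counts of H1-4 overlap. H2AC6 and H2BC15 were the 2 lower members (-0.20 and -0.23, edgeR adjusted p = 0.000274 and 0.000279). The number past the threshold in either direction was 13. Without U2OS-AsiSI siINTS11 replicate 2, the shallowest library, it was 7, of which 2 were higher and 5 lower, and the median was 0.05, so the balance toward higher values rests on that library. Without U2OS siINTS11 replicate 1, 8 were higher and 6 lower. The comparisons between the lines use the same libraries as the siRNA comparisons and are not independent of them.

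Of the members, 15 divergent pairs could be formed from an H2A and an H2B gene on opposite strands with at most 500 bases between their starts. In 7 pairs both members averaged at least 20 reads, in 5 neither did, and in 3 only the H2B gene did. The H2A genes of those 3 pairs are H2AC18, H2AC19 and H2AC7. The low counts of H2AC18 and H2AC19, which are near-identical copies, are uncertain. H2BC4 and H2AC6 start 219 bases apart and changed by 1.19 and 0.32 in U2OS and 1.30 and 0.63 in U2OS-AsiSI. H2BC11 and H2AC11, 292 bases apart with spans of 6854 and 2250, changed by 0.76 and 0.21 and by 0.95 and 0.46. H2BC14 and H2AC14, of 381 and 387 bases, had -0.07 and -0.12 in U2OS and 0.26 and 0.27 in U2OS-AsiSI, of which only the 0.26 passed. The pair with H2BC7 is uneven in level: H2BC7 averaged 434 reads and H2AC7 had none. H2AC7 shares bases with AL031777.2 on its strand, and how reads in shared bases were counted is not given, so its lack of reads is uncertain too. These pairs were picked out after the values were seen, and the difference within a pair was not tested.

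Histone genes outside the name pattern and the genes that act on histone RNA were read from fixed lists, with calls by edgeR over all genes. Their counts are to be read against the 35.4% of all genes that rose and 32.6% that fell in U2OS-AsiSI, and 34.5% and 32.4% in U2OS. H4-16, a replication-dependent H4 gene on another chromosome with a span of 3133 bases, had 654, 682 and 541 reads against 1163, 1164 and 1159 in U2OS and 520, 642 and 571 against 1100, 995 and 1202 in U2OS-AsiSI. The groups did not overlap, and it rose by 0.80 and 1.08 (edgeR adjusted p = 8.18e-13 and 1.71e-15). H2AW, H2BU1 and H3-4 were at 0 in every library, and H3-7 was not matched. Of 18 tested genes of histone pre-mRNA processing, 6 rose and 2 fell in U2OS-AsiSI and 7 rose and 3 fell in U2OS (medians 0.04 and 0.05), so the share that rose was near the background. NCBP2, a cap-binding subunit, rose by 0.41 and 0.39, and CPSF2, a subunit of the cleavage complex, fell by 0.21 in both.

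Of 10 genes that regulate histone gene transcription, 1 rose and 6 fell in U2OS-AsiSI and 1 rose and 5 fell in U2OS (medians -0.16 and -0.13). POU2F1, which binds the octamer, fell by 0.61 in U2OS-AsiSI and 0.52 in U2OS, and the cyclin gene CCNE2 by 0.47 and 0.49. Of 18 G1/S and S phase genes, 3 rose and 6 fell in U2OS-AsiSI and none rose and 8 fell in U2OS, and MCM6, a helicase subunit, fell by 0.83 and 0.76, and E2F8 by 0.43 and 0.32. Of 19 G2 and M phase genes, 12 and 13 fell, among them CENPE by 0.43 and 0.34 and BUB1B by 0.35 and 0.28. For the G1/S and S phase list, the share that fell is at the background in U2OS-AsiSI and above it in U2OS. The share of that list that rose is below the background in both lines. For the G2 and M phase list, the share that fell is above the background in both lines. The part of cell cycle state in the histone values was not tested.

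Of 11 replication-independent variants, which are expressed outside S phase and mostly polyadenylated, 6 rose and 2 fell in U2OS-AsiSI and 2 rose and 4 fell in U2OS (medians 0.19 and 0.00). H2AJ, an H2A variant, went from 130, 176 and 118 to 329, 325 and 289 reads in U2OS and rose by 1.07 there and 1.08 in U2OS-AsiSI. MACROH2A2 fell by 0.66 and 0.68. Of 17 chaperone genes, 3 rose and 7 fell in U2OS-AsiSI and 1 rose and 10 fell in U2OS, ATRX and CABIN1 among those that fell in both. Inside the first chromosome 6 cluster lie 16 genes that are not members; of the 6 tested in U2OS-AsiSI 4 rose and 1 fell, and of the 7 in U2OS 4 rose and 1 fell. TRIM38, a gene of innate immunity, rose by 0.57 in U2OS and 0.66 in U2OS-AsiSI, and AL031777.2 by 0.37 and 0.67. The medians of those neighbours, 0.41 in U2OS and 0.57 in U2OS-AsiSI, were above those of the cluster's members, 0.12 and 0.38. They rest on 7 and 6 genes, and the difference was not tested. AL031777.2 shares bases on its strand with the members H3C4 and H2AC7, so its reads are not clearly apart from theirs.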

How the data were processed

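The deposited files hold raw read counts per gene, with chromosome, start, end, strand and length; per the submitters' processing notes Trimmomatic 0.36, STAR 2.7, featureCounts, deepTools and hg38 were used, with no settings given. Length equals end minus start plus 1 for all 60504 genes with a single location, so counts cover whole spans. All 12 count columns were matched to samples, and 0 were left over. Counts were tested with edgeR 4.0.16 (R 4.3.3): filterByExpr, TMM scaling, robust glmQLFit and glmQLFTest, two-sided, with Benjamini-Hochberg adjustment over all genes tested and a threshold of 0.05. Each comparison used its 6 libraries, and the difference between the lines used all 12 with an interaction term. Tested on simulated data, the fits recovered 94.6% of 2-fold changes in U2OS-AsiSI (20172 genes) and 97% in U2OS (20422 genes). The simulated counts rose in proportion to library size without an upper limit. Counts of the dense members do not behave so, and these rates do not describe them. Named members are, per class, the 3 densest with spans up to 1 kb, every member over 1 kb with a mean count of at least 20, and those with the smallest adjusted p (5 per siRNA comparison, 3 per other comparison). Of each other list, and of the non-members in a cluster, the 2 smallest are named. Members and lists were chosen with earlier results of these data known. Stem-loops were searched in GENCODE 29 transcripts, and all 80 members had a RefSeq entry. Alternatives were other scalings, filters, DESeq2 1.42.0, a replicate block, thinning, a transform for a limit of 1 read per base, and leaving out each library.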

Additional observations from a re-analysis of the deposited data

Results flagged for a closer look

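For H2AC6, the siINTS11 effect was larger in U2OS-AsiSI than in U2OS by 0.27 on the log2 scale (edgeR adjusted p = 0.0213, interaction over 12 libraries), and it is listed because the difference between the lines itself passed the test. In each line all 3 siINTS11 counts were above all 3 siCtrl counts. Under 20 alternatives the difference lay between 0.24 and 0.34 and passed in 16. It did not pass without replicate 1 of U2OS siCtrl, U2OS siINTS11 or U2OS-AsiSI siCtrl, or without U2OS-AsiSI siCtrl replicate 2 (edgeR adjusted p = 0.0612 to 0.0772). With siCtrl the gene was already lower in U2OS-AsiSI, by a log2 difference of -0.50, and whether this starting level bears on the difference was not tested.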

How the results depend on the processing

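With library totals alone, the members' median log2 change was 0.56 in U2OS-AsiSI and 0.26 in U2OS, and 6 members differed between the lines under siCtrl. Over members under 0.1 reads per base the medians were 0.63 in U2OS-AsiSI, 0.32 in U2OS, 0.13 for the difference between the lines and -0.11 for the lines under siINTS11; over spans up to 1 kb the U2OS median was -0.08. The difference between the lines passed for 2 members with median-of-ratios size factors, 14 of 67 with no filter on low counts, 7 with a mean count of at least 50, 2 after thinning and 11 with the limit of 1 read per base undone, which also gave 23 members lower under siCtrl. The cause was not tested. The counts past the threshold and medians in the 2 siRNA comparisons were otherwise within 1.5 times, or 1 SD, of those reported.

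Leaving out single libraries gave 24 to 34 members past the threshold in U2OS-AsiSI, 11 to 19 in U2OS, 0 to 13 for the difference, 7 to 18 under siCtrl and 7 to 19 under siINTS11. The medians ran from 0.27 to 0.42, -0.02 to 0.12, 0.19 to 0.35, -0.27 to -0.11 and 0.05 to 0.20 in the same order. Signs that turned belonged to values near 0. In U2OS-AsiSI these were H4C9 (0.15 with library totals, 0.02 with a mean count of at least 50, -0.14 to 0.04 leaving out libraries), H3C6 (-0.00 after thinning, -0.02 to 0.21) and H2BC12 (-0.02 to 0.27). In U2OS, library totals gave 0.09 for H2AC20, 0.15 for H3C1, 0.12 for H4C2, 0.08 for H3C2, 0.11 for H2AC4, 0.08 for H1-2, 0.08 for H1-4, 0.08 for H2BC12, 0.13 for H2AC12, 0.19 for H2BC13, 0.13 for H3C10 and 0.13 for H2BC14. H2BC7 was -0.00 with size factors, -0.01 with DESeq2, -0.01 after thinning and -0.10 to 0.13 leaving out libraries. H2BC13 was 0.03 with a mean count of at least 50, 0.04 with the limit undone and -0.09 to 0.07, and H3C1 was 0.04 with the limit undone and -0.15 to 0.04. The ranges were -0.17 to 0.01 for H2AC4, -0.20 to 0.03 for H2AC12, -0.14 to 0.02 for H3C10 and -0.15 to 0.00 for H2BC14.

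Samples of the same number did not deviate together throughout (correlations of -0.21 to 0.28), so no pairing was used in the main fits. With 3 libraries per group this cannot exclude a pairing. With a replicate block, 31 members passed in U2OS-AsiSI, 14 in U2OS, 1 for the difference, 12 under siCtrl and 15 under siINTS11. Among the named members the block ended the U2OS-AsiSI calls of H2AC12 and H2AC20 (edgeR adjusted p = 0.057 and 0.0507) and the U2OS call of H4C1 (edgeR adjusted p = 0.0512). The depth limits what can be said of the 28 members averaging under 1 read.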
